A study of Mus musculus with 12 samples.

Results

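The genes described here encode subunits of the NMDA receptor, the glutamate-gated calcium channel of excitatory synapses. They were taken by name from the deposited count table, as every symbol made of Grin1, Grin2 or Grin3 with an optional letter. This gave 6 of 12145 genes, namely Grin1, Grin2a, Grin2b, Grin2d, Grin3a and Grin3b, and all 6 were among the 12119 genes tested. Grin2c had no row in the count table under that name, so it was not analysed here.

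RNA was measured in cortical cultures from C57BL6 mouse embryos of embryonic day 16.5 to 17.5, infected on day 6 in vitro with lentivirus (multiplicity of infection 2 in all). OGD is oxygen-glucose deprivation, in which cultured cells lose oxygen and glucose as a model of ischemia. The OGD-miR-29 cultures (n = 3 libraries) carried the miR-29c virus and had 3 h of OGD on day 14 with 4 h of recovery, and the OGD-empty cultures (n = 3) had the same OGD with an empty virus. The sham-miR-29 cultures (n = 3) and the sham-empty cultures (n = 2) carried these viruses and stayed in normal oxygen, with the same change of buffer. Every culture was therefore infected, and no uninfected culture was included. A given replicate number marks cultures dissected on 1 day. What promoter drives the viral insert, and how many embryos made up a culture, is not given in the sources used here.

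An NMDA receptor is a tetramer that needs GluN1, the subunit encoded by Grin1, which binds the co-agonist glycine or D-serine. The GluN2 subunits, encoded by Grin2a to Grin2d, bind glutamate and set how long the channel stays open and what it attaches to. In the developing rodent cortex GluN2B comes first and GluN2A is added as synapses mature. GluN3 subunits, encoded by Grin3a and Grin3b, lower the calcium flow through the channel. Excess calcium entry through NMDA receptors is a classical route of neuronal injury in ischemia. MicroRNAs lower the stability or translation of messenger RNAs whose 3′UTR pairs with their seed, bases 2 to 8.

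The virus of the tested cultures carries miR-29c, so the mature sequences of the miR-29 family are shown first, from RefSeq (GRCm38.p6), with the seed in capitals. All 3 share 1 seed.
miR-29c-3p: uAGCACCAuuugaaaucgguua
miR-29a-3p: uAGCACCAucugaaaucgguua
miR-29b-3p: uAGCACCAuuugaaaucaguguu

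The 3′UTRs of the subunit genes (GENCODE M21, GRCm38) were searched on the transcribed strand for TGGTGCT, for TGGTGCTA and for GGTGCTA. These are the complement of the seed, the same with a following A, and the complement of seed bases 2 to 7 with a following A. A TGGTGCTA was counted once, as the longest type. Such matches were found in 2 of the 6 genes, with 1 in Grin2a and 4 in Grin2b. The matches are in capitals, with the bases on either side, and every match found is shown. Of the 6 subunit genes, these 2 also differed most between the viruses after OGD. A link between the matches and these differences was not tested.
Grin2a, chr16:9571040-9571062, minus strand: tccccgccTGGTGCTtgcactca
Grin2b, chr6:135719791-135719814, minus strand: tttctcttTGGTGCTAttctcata
Grin2b, chr6:135725799-135725821, minus strand: ccctgagcTGGTGCTgagaagca
Grin2b, chr6:135728777-135728799, minus strand: attaggaaGGTGCTAttttgctc
Grin2b, chr6:135726623-135726645, minus strand: gaccctcgGGTGCTAtttaacct

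The 3′UTRs that hold these matches are long, 9929 nt for Grin2a and 18865 nt for Grin2b. Of 9602 genes of the table with an annotated 3′UTR, 20.7% held at least 1 match. Among genes with a 3′UTR of 80% to 125% of the same length, the share was 68.7% of 99 genes for Grin2a and 83.3% of 6 genes for Grin2b. A match in these windows is a description of the letters and not a measured site. No match was found in the 3′UTRs of Grin1 (1187 nt), Grin2d (897 nt), Grin3a (3615 nt) or Grin3b (86 nt), where 16.3%, 12.9%, 37.0% and 1.08% of genes of like length held one.

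Depth was low and shared unevenly. The counts of a library summed to 1337564 to 6616920, and 57.6% to 84.1% of this lay in 37 rows of the mitochondrial genome. A read could be counted in more than 1 row, since the row mt-Tf held 110844 and the neighbouring mt-Rnr1 110849 in sham-empty replicate 1. A column labelled as the remaining sham-empty library summed to 22859, and its Spearman correlation with the other libraries was 0.0438 to 0.0978, so it was taken not to hold read counts and was left out. OGD-empty replicate 2 stood apart, with 57.6% of its counts in mitochondrial rows and 42.3% of the rest in genes spanning 100 kb or more, against 25.1% and 26% in the other OGD-empty libraries. The OGD-miR-29 libraries had 14.1% to 16.2% there, the sham-miR-29 libraries 17% to 22.6% and the sham-empty libraries 17.9% and 19.1%. All 10 pan-neuronal, 6 excitatory and 6 inhibitory markers had counts in all 11 libraries. The same held for every glial, endothelial or fibroblast marker with a row in the table, so presence alone does not single out neurons. The oligodendrocyte and microglial lists had 3 genes each in the table, and Gfap, P2ry12 and Cldn5 had no row there under these names. In bulk RNA, fewer cells of a type and less RNA per cell cannot be told apart.

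Levels are given as CPM, counts scaled to library size with TMM, edgeR's correction for composition. Differences are log2 fold changes ± SE from edgeR's quasi-likelihood test, with p-values adjusted by Benjamini-Hochberg over all 12119 genes and a call at an adjusted p under 0.05. In empty-virus cultures OGD went with higher Grin2b, and after OGD the miR-29 virus went with lower Grin2b, Grin2a and Grin3a. Grin1, Grin2d and Grin3b did not pass the test in any contrast. Most of the Grin2a, Grin2b and Grin3a differences ran along with a trend of all genes with gene length, described below.

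Grin1 (chr2:25291181-25319187, minus strand, spanning 28.01 kb) encodes the subunit that every NMDA receptor contains. Its level was 27.9, 29.1 and 23.6 CPM in the OGD-miR-29 libraries, 38, 24.4 and 31.1 CPM in OGD-empty, 27.3, 27.3 and 31.4 CPM in sham-miR-29, and 27.8 and 24.9 CPM in sham-empty. The groups overlapped throughout, and OGD-empty replicate 1 was the highest library. The group means were 26.9 ± 2.94, 31.2 ± 6.80, 28.7 ± 2.35 and 26.4 ± 2.09 CPM (SD) in the same order, so no neighbouring pair differed by more than its spread. The counts behind these levels were 28 to 246 per library. The log2 fold change was -0.23 ± 0.20 for OGD-miR-29 against OGD-empty (adjusted p = 0.399) and 0.27 ± 0.25 for OGD-empty against sham-empty (adjusted p = 0.536), with an interval of 2 SE of -0.23 to 0.77.

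Grin2a (chr16:9567898-9995560, minus strand, spanning 427.66 kb) encodes GluN2A, the subunit typical of mature synapses. Its level was 21.3, 15.8 and 17.8 CPM in OGD-miR-29, 45.2, 205 and 49.3 CPM in OGD-empty, 23.5, 33.4 and 19.5 CPM in sham-miR-29, and 43.8 and 31.8 CPM in sham-empty. All 3 OGD-miR-29 libraries were below all 3 OGD-empty libraries, as in 25.2% of all genes. OGD-empty replicate 2 was far above every other library. The 2 remaining OGD-empty libraries were only slightly above the higher of the sham-empty libraries. In order of mean level came OGD-empty (99.7 ± 90.8 CPM, SD), sham-empty (37.8 ± 8.44), sham-miR-29 (25.5 ± 7.16) and OGD-miR-29 (18.3 ± 2.81). The OGD-empty and sham-empty means differed by less than the OGD-empty SD, and the 2 lower steps were each at or above the larger SD of their pair.

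Grin2b (chr6:135713233-136173511, minus strand, spanning 460.28 kb) encodes GluN2B, the subunit that dominates in young cortical neurons. It was the subunit gene with the highest counts, 71 to 1026 per library. Its level was 51.3, 37.8 and 47.1 CPM in OGD-miR-29, 158, 327 and 141 CPM in OGD-empty, 62.9, 103 and 53 CPM in sham-miR-29, and 70.6 and 74.7 CPM in sham-empty. Every OGD-empty library was above every library of the other groups, and every OGD-miR-29 library was below every other library. Of all genes, 22% had OGD-empty wholly above sham-empty and 25.2% had OGD-miR-29 wholly below OGD-empty. For OGD-miR-29 below sham-miR-29 the share was 8.69%, and below sham-empty it was 17.1%. The share of genes with all these orders at once was not counted. The means were 209 ± 103 CPM (SD) in OGD-empty, 73.1 ± 26.7 in sham-miR-29, 72.6 ± 2.86 in sham-empty and 45.4 ± 6.89 in OGD-miR-29, and the sham groups differed by less than their spread.

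Grin2d (chr7:45831883-45878378, minus strand, spanning 46.5 kb) encodes GluN2D, a subunit of slowly closing channels found in interneurons and in early development. It had only 3 to 23 counts per library. Its level was 4.23, 4.73 and 6.73 CPM in OGD-miR-29, 3.40, 3.16 and 2.68 CPM in OGD-empty, 2.65, 4.23 and 4.11 CPM in sham-miR-29, and 2.98 and 5.21 CPM in sham-empty. The OGD-miR-29 libraries lay above the OGD-empty libraries without overlap, as in 25% of all genes, the opposite order to Grin2a and Grin2b. The means ran from 5.23 ± 1.33 CPM (SD) in OGD-miR-29 through 4.10 ± 1.57 in sham-empty and 3.67 ± 0.877 in sham-miR-29 to 3.08 ± 0.365 in OGD-empty, and neighbours in this order differed by less than their spread.

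Grin3a (chr4:49661611-49845744, minus strand, spanning 184.13 kb) encodes GluN3A, which is most abundant in the young brain and restrains synapse maturation. Its level was 9.92, 3.94 and 8.17 CPM in OGD-miR-29, 15, 18.5 and 13.4 CPM in OGD-empty, 11.8, 10.4 and 11.3 CPM in sham-miR-29, and 11.9 and 6.37 CPM in sham-empty. The OGD-empty libraries were the highest 3 of the 11, and the sham-miR-29 libraries lay closely together. Of all genes, 22% had OGD-empty above sham-empty without overlap, and 25.2% had OGD-miR-29 below OGD-empty. In order of mean level came OGD-empty (15.6 ± 2.62 CPM, SD), sham-miR-29 (11.1 ± 0.703), sham-empty (9.15 ± 3.94) and OGD-miR-29 (7.34 ± 3.08), and only the step below OGD-empty was larger than the larger SD of its pair. The lowest library, OGD-miR-29 replicate 2, rested on 10 counts.

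Grin3b (chr10:79970715-79977190, plus strand, spanning 6.48 kb) encodes GluN3B, best known from motor neurons. Its level was 6.80, 10.6 and 8.17 CPM in OGD-miR-29, 5.10, 5.87 and 9.65 CPM in OGD-empty, 5.31, 4.23 and 9.77 CPM in sham-miR-29, and 7.96 and 5.79 CPM in sham-empty. All 4 groups overlapped, with means of 8.53 ± 1.94, 6.87 ± 2.44, 6.44 ± 2.94 and 6.87 ± 1.53 CPM (SD) in the same order. No neighbouring means differed by more than their spread, on 8 to 38 counts per library.

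**Figure D1:**
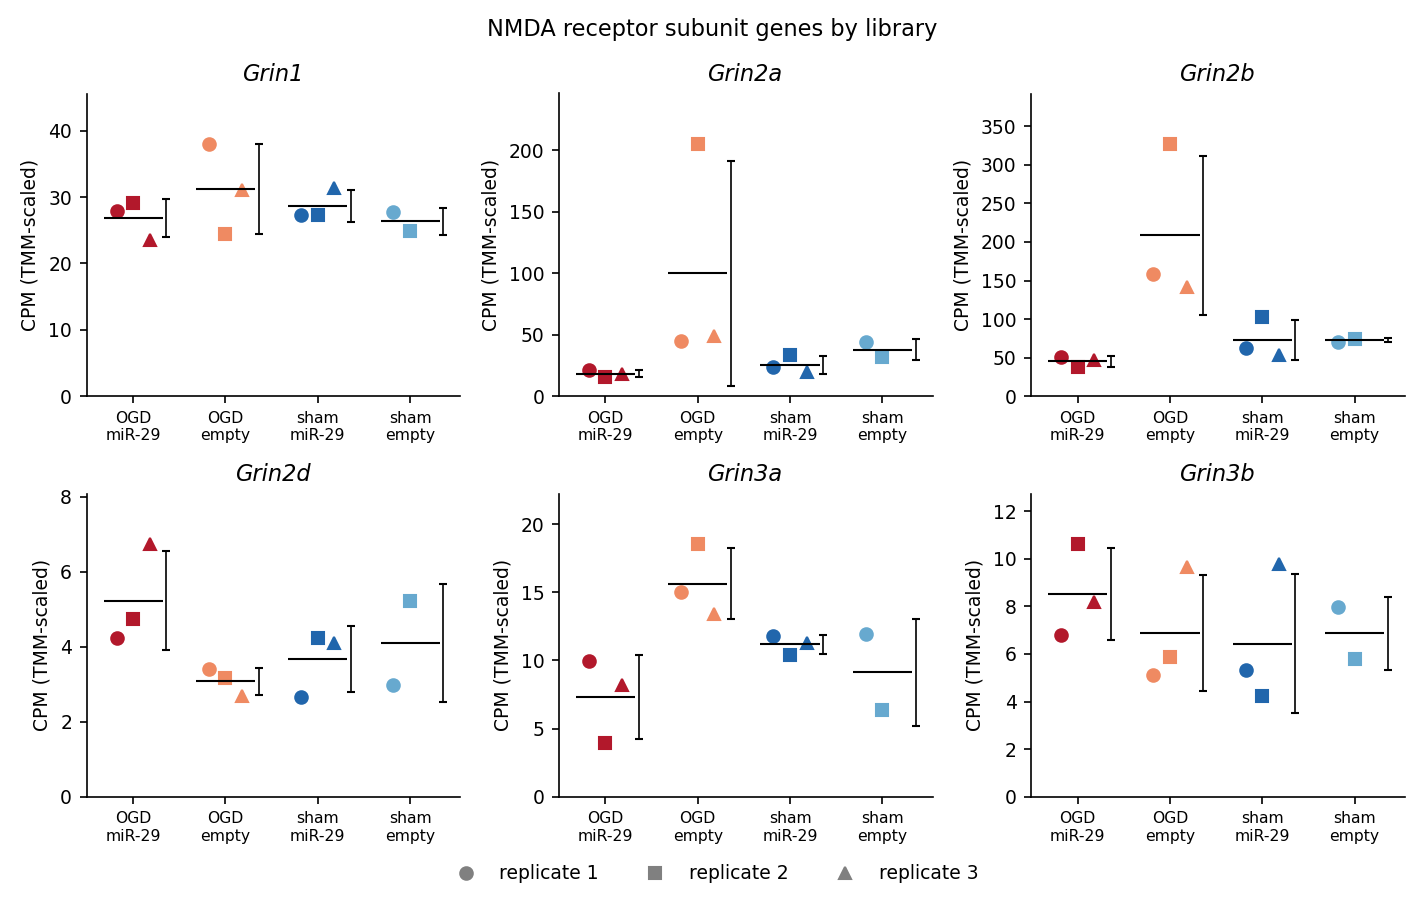
Level of the 6 subunit genes in each library, as TMM-scaled CPM on linear axes from 0 with a scale for each gene, by group; symbols mark the replicate number, horizontal lines the group mean and bars beside them ± 1 SD. Grin2b is at 141 to 327 CPM in the OGD-empty libraries and at 37.8 to 51.3 CPM in the OGD-miR-29 libraries, while the groups overlap for Grin1 and Grin3b.

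Between genes, levels were compared per kb. Per kb of gene span the mean over the 11 libraries was 1.11 ± 0.334 CPM for Grin3b, 1.02 ± 0.144 for Grin1, 0.223 ± 0.183 for Grin2b, 0.108 ± 0.126 for Grin2a, 0.0862 ± 0.0265 for Grin2d and 0.0596 ± 0.0218 for Grin3a (SD). Per kb of merged exon the order changed, with Grin2b first at 4.13 CPM, followed by Grin1 at 2.93, Grin2a at 2.57, Grin3b at 2.19, Grin3a at 0.894 and Grin2d at 0.602. The region over which reads were counted was not given in the sources used here, so neither order can be preferred. Grin3a and Grin2d were the lowest on both scales.

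Reads of neighbouring genes may be part of some of these values. The strand setting of the counting was not given in the sources used here, and the antisense gene Grin1os (in the table as E130003G02Rik) overlaps Grin1 and held 733 counts in all against 969 for Grin1. The rows Tmem210 and Lrrc26, just downstream of Grin1, differed from each other by at most 1 count in every library, so a read may have been counted in both. Grin2d, with 129 counts in all, is overlapped by Kdelr1 (157) and followed by Kcnj14 (367), and Grin3b, with 226, is overlapped by Tmem259 (495). Grin3a, with 369 counts, is followed by Rnf20 (522) on the opposite strand. Grin2a had no annotated neighbour in its span or the 10 kb downstream. Inside Grin2b, on the opposite strand, lies the long noncoding RNA Gm14329 with 247 counts in all, against 3328 for Grin2b. The values of Grin1, Grin2d, Grin3a and Grin3b are uncertain to this extent.

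The first question was how the subunit genes differed after OGD without added miR-29. Grin2b was higher in OGD-empty than in sham-empty cultures, with a log2 fold change of 1.52 ± 0.37 (2.87-fold, adjusted p = 0.0331). It was the 1 of 6 subunit genes called, where 5.09% of all genes were called, 1.48% higher and 3.61% lower. The OGD-empty libraries were above the sham-empty libraries in Grin2b, Grin2a and Grin3a, where 22% of all genes separated in this way. Grin2a had 1.41 ± 0.70 (adjusted p = 0.264) and Grin3a 0.85 ± 0.38 (adjusted p = 0.179), neither of which passed the test. Values for the others were -0.44 ± 0.48 for Grin2d (adjusted p = 0.605) and -0.05 ± 0.46 for Grin3b (adjusted p = 0.959). The Grin2b call was not robust. In a fit of the 5 libraries compared alone its adjusted p was 0.0854, without sham-empty replicate 1 it was 0.174 and without sham-empty replicate 2 it was 0.239, with log2 fold changes of 1.43 to 1.59. It was also lost without OGD-miR-29 replicate 1 or 3 or all of replicate 1 (adjusted p 0.0506, 0.0617 and 0.190). In the authors' deposited table of this comparison, Grin2b had a log2 fold change of 2.11 with a false discovery rate of 0.0649, Grin2a 1.68 with 0.211, and 6 genes in all were under 0.05. That table holds a likelihood ratio score, and its design is not given in the sources used here. It is therefore not a like-for-like check of the fit used here.

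Grin2a depended on 1 library. Without OGD-empty replicate 2 its log2 fold change was 0.40 ± 0.26 (adjusted p = 0.390), while Grin2b without that library had 1.10 ± 0.26 (adjusted p = 0.00747). With the replicate number as a block, Grin2b had 1.60 ± 0.31 (adjusted p = 0.00529), and 1369 genes in all were called in place of 617.

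The second comparison asked whether the miR-29 virus went with a different level after OGD. After OGD, Grin2b was 4.58-fold lower under the miR-29 virus than under the empty virus, with a log2 fold change of -2.20 ± 0.32 (adjusted p = 0.000603). Grin2a was lower by 5.34-fold, at -2.42 ± 0.61 (adjusted p = 0.0170). Grin3a was lower by 2.03-fold, at -1.02 ± 0.29 (adjusted p = 0.00960). All 3 were lower in 3 of 3 same-numbered pairs. These 3 of 6 subunit genes stand against 37.1% of all genes called in this contrast, with 19.9% of all genes called lower and 17.2% higher, and 25.2% of all genes had groups that did not overlap in this direction. Grin2d at 0.65 ± 0.35 (adjusted p = 0.146) and Grin3b at 0.37 ± 0.33 (adjusted p = 0.391) did not pass the test. The median over the 6 subunit genes was -0.62, against 0.02 over all genes.

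Single libraries mattered here too. Without OGD-empty replicate 2 the Grin2a difference shrank to -1.36 ± 0.23 (adjusted p = 4.12e-05), and Grin2b had -1.75 ± 0.22 (adjusted p = 9.17e-07). Without OGD-miR-29 replicate 2 Grin2a (adjusted p = 0.0584) and Grin3a (-0.75, adjusted p = 0.0503) were no longer called, and without OGD-miR-29 replicate 3 Grin2a was not (adjusted p = 0.0587). Leaving out all of replicate 2 gave -1.24 for Grin2a, which was still called, and -0.64 for Grin3a (adjusted p = 0.0565), which was not. Grin2b was called in each of these fits.

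**Figure D2:**
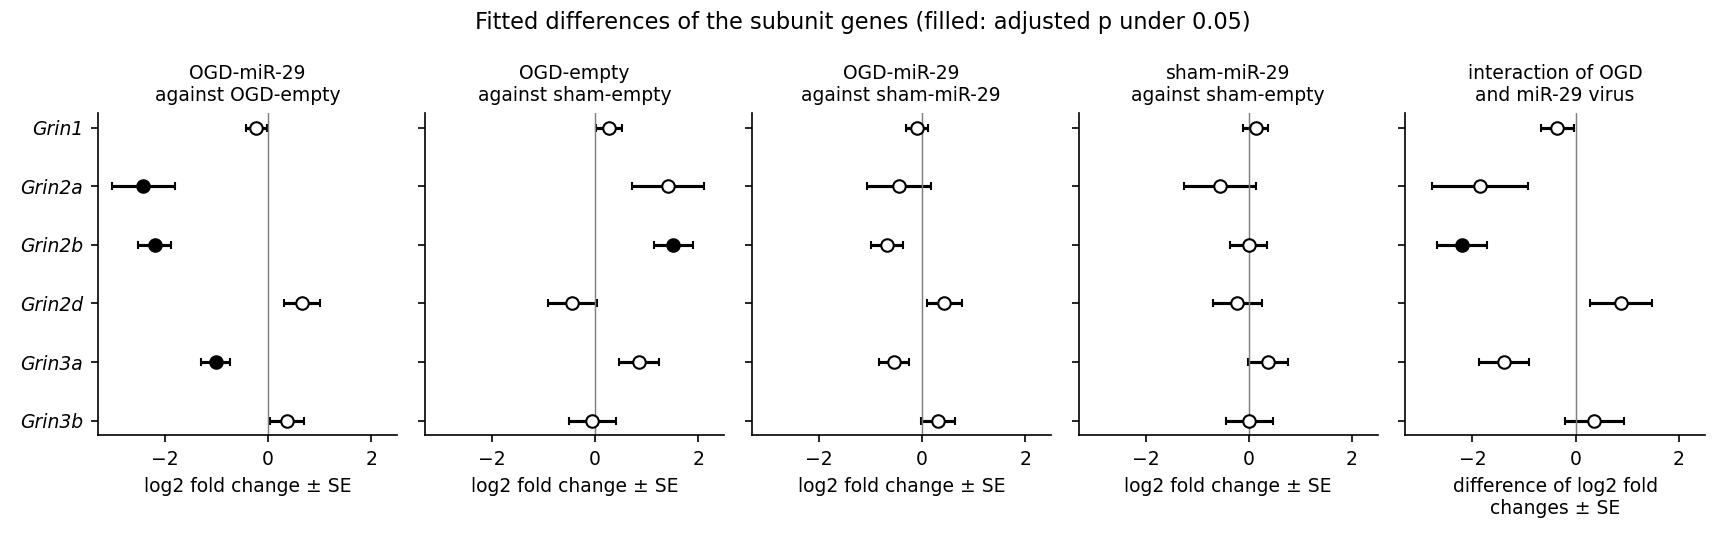
Fitted log2 fold change ± SE of each subunit gene in 4 contrasts and in the interaction of OGD and virus, from 1 fit of 11 libraries, with filled points where the adjusted p is under 0.05. Filled points are Grin2a, Grin2b and Grin3a in OGD-miR-29 against OGD-empty, and Grin2b in OGD-empty against sham-empty (1.52) and in the interaction (-2.20).

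In sham cultures the virus made no detectable difference. The subunit genes lay between -0.56 ± 0.70 for Grin2a and 0.37 ± 0.39 for Grin3a in sham-miR-29 against sham-empty, each with an adjusted p of 1, and Grin2b was at 0.00 ± 0.36. In this contrast 0% of all genes were called by edgeR, with 405 at an unadjusted p under 0.05 and 2 libraries in the sham-empty group. The interval of 2 SE for Grin2b ran from -0.71 to 0.71 and for Grin2a from -1.96 to 0.84.

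Under the miR-29 virus, OGD went with no called subunit gene. Grin2b was at -0.68 ± 0.31 in OGD-miR-29 against sham-miR-29 (adjusted p = 0.541), the opposite sign to its value under the empty virus, and Grin3a was at -0.54 ± 0.29 (adjusted p = 0.582). Grin2a was at -0.45 ± 0.62 and Grin1 at -0.09 ± 0.21. Grin2d and Grin3b had positive values, 0.43 ± 0.34 and 0.31 ± 0.33. The background was 0.0165% of genes called. For Grin2b and Grin3a all 3 OGD-miR-29 libraries were below all 3 sham-miR-29 libraries, an order that 8.69% of all genes showed. The groups overlapped for the other 4 subunit genes, and 8.19% of all genes were separated in the upward direction.

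The difference between these OGD responses was tested as an interaction. Grin2b responded differently under the viruses, with an interaction of -2.20 ± 0.48 on the log2 scale (adjusted p = 0.0176), where 8.38% of all genes were called, 4.72% above 0 and 3.66% below 0. With the replicate block 1861 genes were called in place of 1015, Grin2b among them. Grin3a at -1.39 ± 0.48 (adjusted p = 0.0690) and Grin2a at -1.86 ± 0.93 (adjusted p = 0.234) had the same sign without passing the test. Grin1 was at -0.36 ± 0.32, Grin2d at 0.88 ± 0.60 and Grin3b at 0.36 ± 0.57. The Grin2b call ended without either sham-empty library (adjusted p 0.0746 without replicate 1 and 0.111 without replicate 2), without OGD-miR-29 replicate 3 (0.0577), and without all of replicate 1 or 3 (0.0867 and 0.0545). The contrasts above share libraries and are not independent of each other.

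In the remaining comparison, OGD-miR-29 against sham-empty, no subunit gene was called, with 0% of all genes called by edgeR and 841 genes at an unadjusted p under 0.05. Grin2a was at -1.01 ± 0.71 and Grin2b at -0.68 ± 0.36 (adjusted p 0.791 and 0.723), and the other 4 lay between -0.17 and 0.32. The authors' deposited table of this comparison gave -0.67 for Grin2a and -0.08 for Grin2b, both with a false discovery rate over 0.05. As with their other table, this is not a like-for-like check.

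The differences followed gene length. Grin2a, Grin2b and Grin3a are long, at percentiles 97.7, 97.9 and 92.3 of gene span in the table, while Grin1, Grin2d and Grin3b are at 55.6, 68.8 and 23.0. In OGD-miR-29 against OGD-empty, the 503 genes of 300 kb or more had a median log2 fold change of -1.79 with quartiles of -2.17 and -1.27, and 84.3% were called lower. The values of Grin2b (-2.20) and Grin2a (-2.42) were just beyond the lower of these quartiles. Genes of 100 to 300 kb had a median of -0.89 with quartiles of -1.33 and -0.43, and Grin3a (-1.02) lay between them. Genes under 10 kb, the class of Grin3b (0.37), had a median of 0.51. Grin1 (-0.23), in the class of 10 to 30 kb, lay just below the lower quartile of -0.19, and Grin2d (0.65), in the class of 30 to 100 kb, lay above the upper quartile of 0.16. In OGD-empty against sham-empty the medians were 1.26 for genes of 300 kb or more, 0.66 for 100 to 300 kb and -0.38 for under 10 kb, and Grin2b (1.52) and Grin2a (1.41) lay within the quartiles of their class, 0.85 and 1.58.

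**Figure D3:**
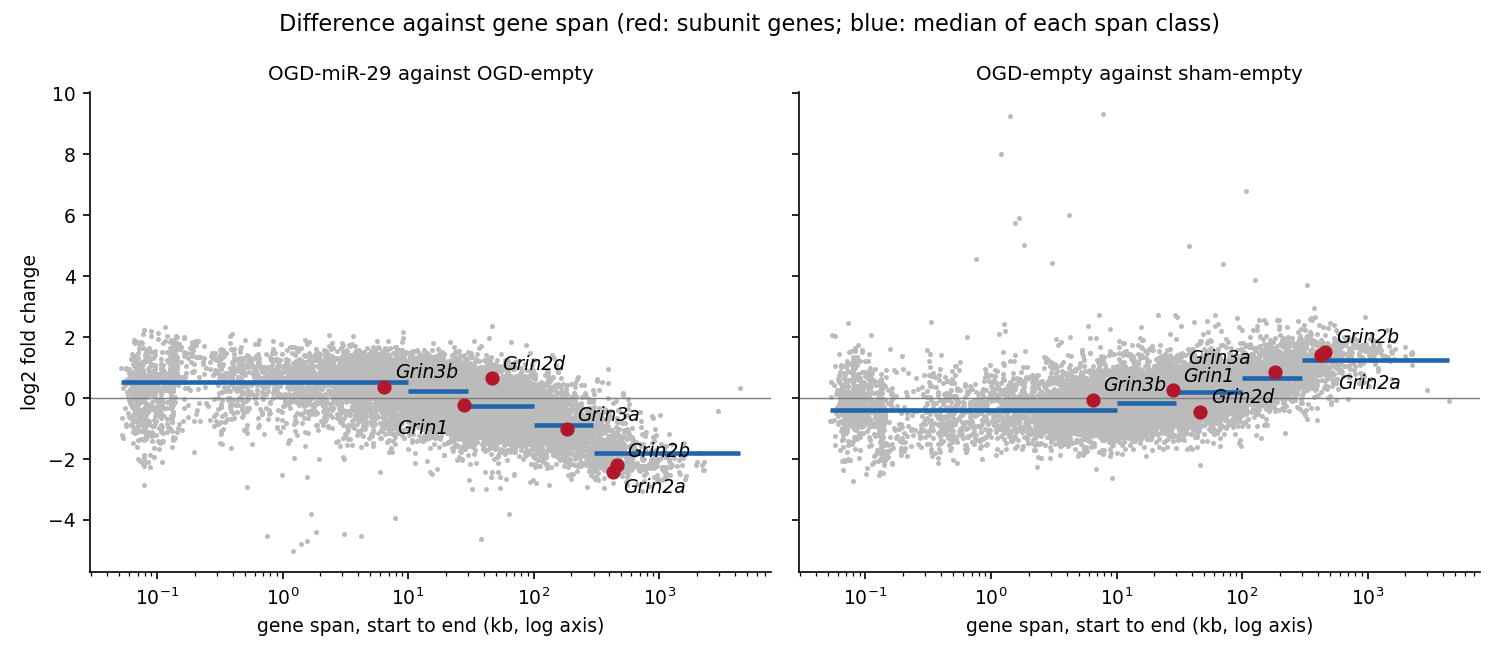
Log2 fold change of each matched gene tested (grey) against gene span in kb on a log axis, for OGD-miR-29 against OGD-empty (left) and OGD-empty against sham-empty (right); blue bars are the medians of 5 span classes and red points the 6 subunit genes. On the left the medians run from 0.51 under 10 kb to -1.79 at 300 kb or more, and Grin2a and Grin2b lie near the last of them.

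A smooth trend of each library's log2 CPM with gene span was therefore taken out and the test repeated. Grin2b and Grin2a remained lower under the miR-29 virus after OGD, but by less, at -0.71 ± 0.19 (adjusted p = 0.00664) and -0.77 ± 0.21 (adjusted p = 0.00857). Grin3a was then at -0.13 ± 0.27 (adjusted p = 0.758) and no longer called. With the replicate block added, the values were -0.71 ± 0.19 for Grin2b, -0.74 ± 0.21 for Grin2a and -0.18 ± 0.24 for Grin3a (adjusted p 0.00633, 0.00936 and 0.617). When OGD-empty replicate 2 was also left out, a fit chosen after seeing the data, Grin2b was at -0.80 ± 0.18 (adjusted p = 0.000444) and Grin2a at -0.39 ± 0.20 (adjusted p = 0.149). The rise of Grin2b in OGD-empty against sham-empty was 0.44 ± 0.22 without the length trend (adjusted p = 0.296) and its interaction -0.74 ± 0.29 (adjusted p = 0.130), neither of them called. With the length trend removed, 22.9% of all genes were called in OGD-miR-29 against OGD-empty.

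By library, the length trend at the span of Grin2b stood at -0.48, -0.54 and -0.57 in OGD-miR-29 and at 0.36, 1.74 and 0.49 in OGD-empty, on the log2 scale relative to the mean library. It was -0.33, 0.16 and -0.43 in sham-miR-29 and -0.01 and -0.22 in sham-empty. After subtraction, Grin2b deviated from its own mean by -0.20, -0.57 and -0.23 in OGD-miR-29, by 0.58, 0.23 and 0.27 in OGD-empty, by -0.06, 0.16 and -0.20 in sham-miR-29 and by -0.22 and 0.07 in sham-empty. The OGD-empty libraries remained the highest 3, by a smaller margin.

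Grin2a kept 1 high library. Its deviations after subtraction were -0.17, -0.53 and -0.33 in OGD-miR-29, 0.07, 0.89 and 0.07 in OGD-empty, -0.18, -0.17 and -0.34 in sham-miR-29, and 0.38 and 0.14 in sham-empty. Here OGD-empty replicates 1 and 3 fell below both sham-empty libraries, and OGD-miR-29 stayed below OGD-empty and sham-empty. For Grin3a the OGD-miR-29 values were 0.24, -0.88 and 0.06, against 0.23, -0.26 and 0.02 in OGD-empty, so these groups overlapped. The part of the length trend that comes from the cells and the part that comes from the libraries were not tested.

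**Figure D4:**
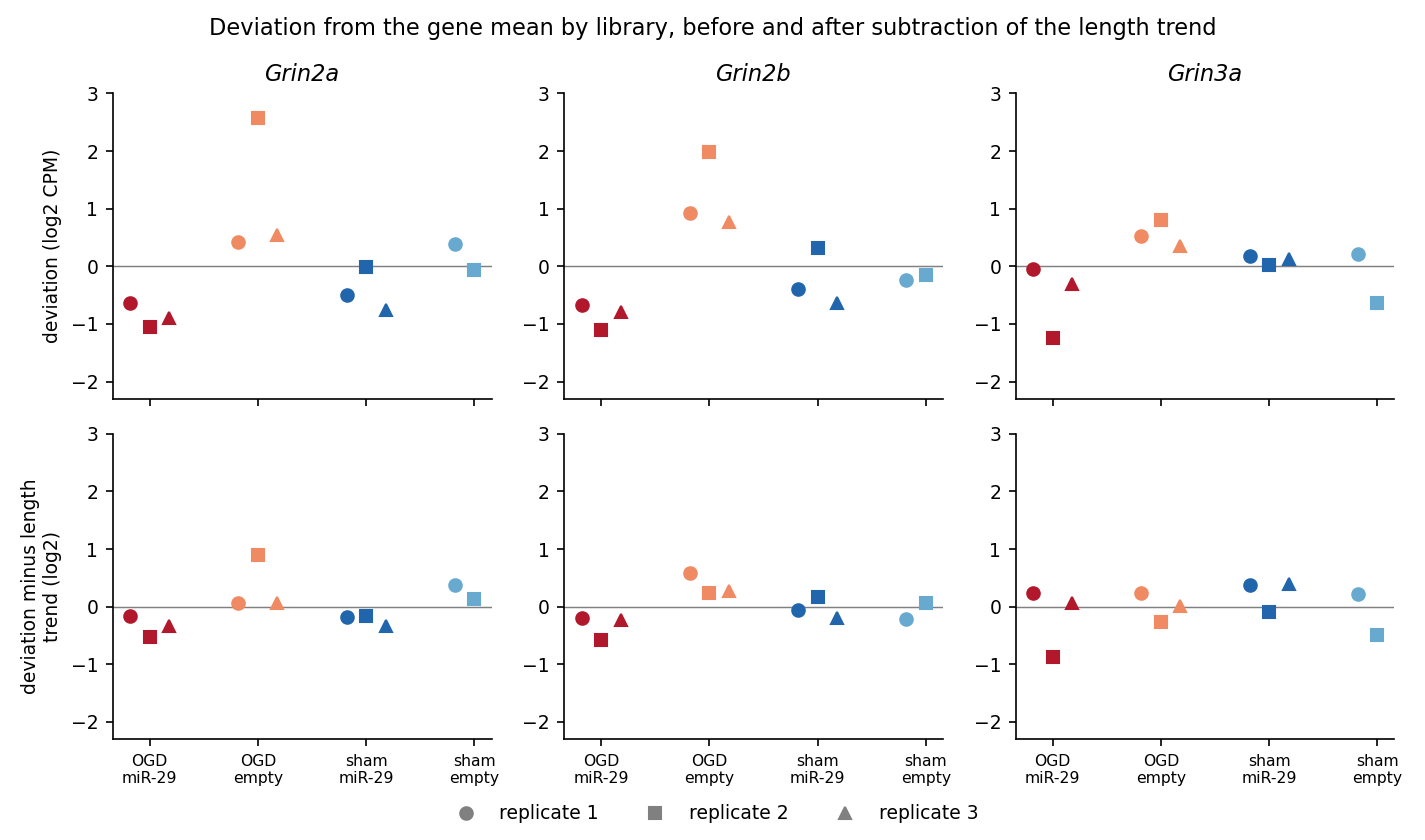
Deviation of Grin2a, Grin2b and Grin3a from the gene's own mean log2 CPM in each library (top), and the same after the library's length trend was subtracted (bottom), by group; symbols mark the replicate number. In the bottom row the Grin2b values of OGD-empty are 0.58, 0.23 and 0.27 and stay above the other groups, and those of Grin3a overlap.

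**Figure D5:**
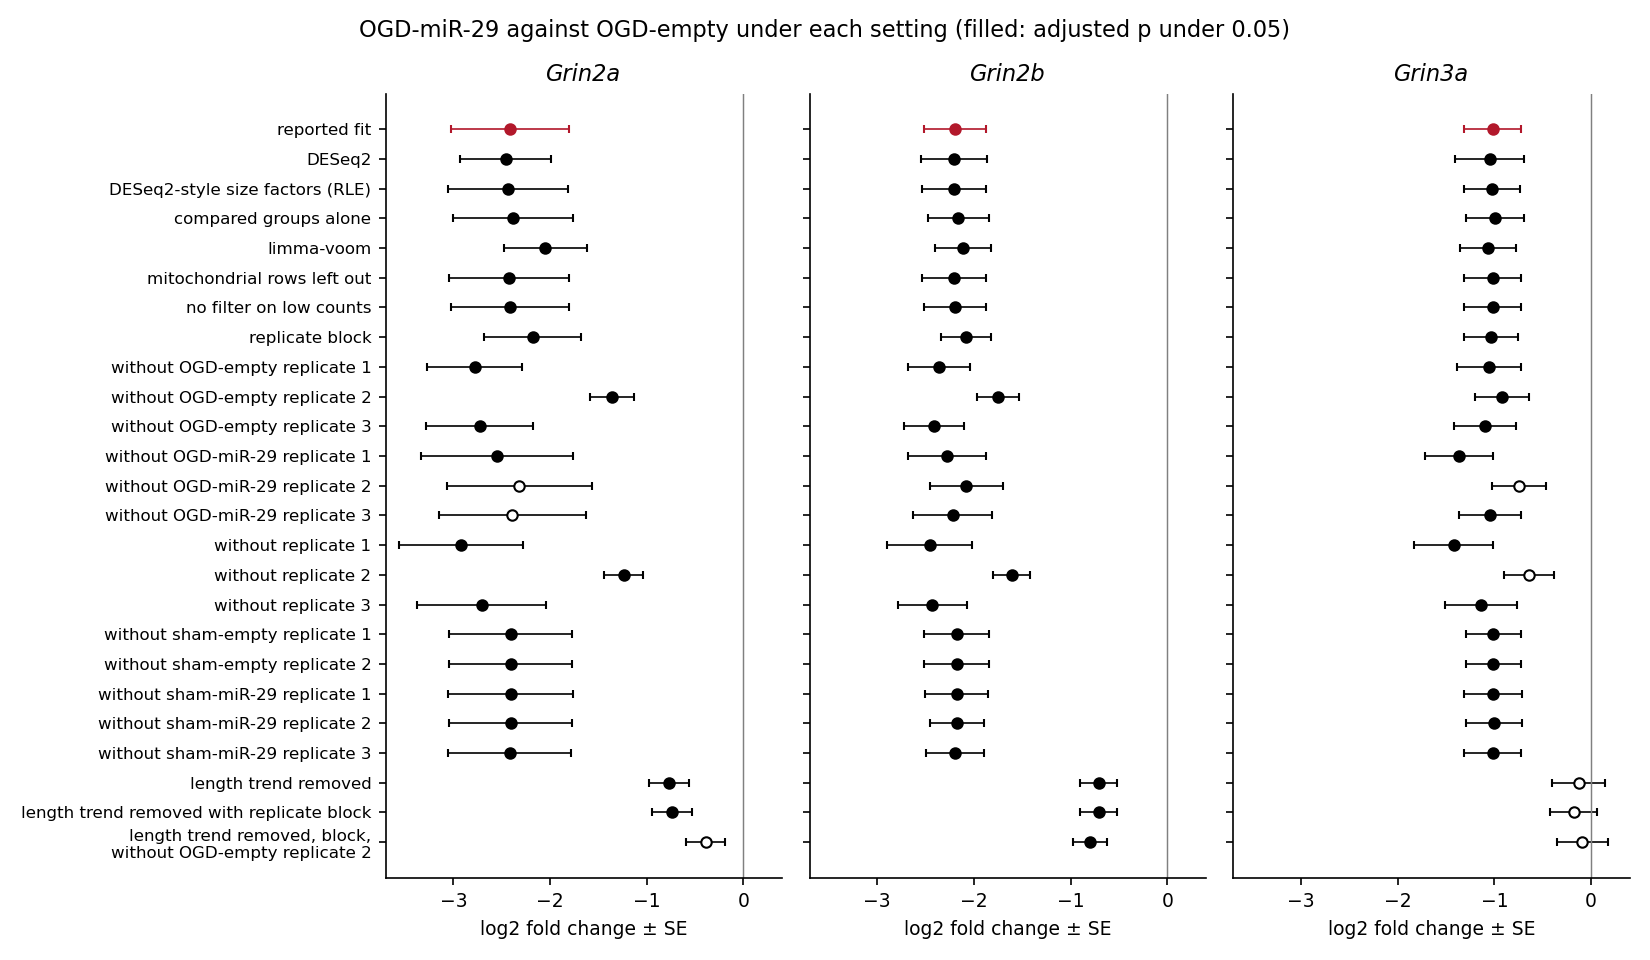
Log2 fold change ± SE of Grin2a, Grin2b and Grin3a in OGD-miR-29 against OGD-empty, in the reported fit (red) and under each alternative (black), with filled points where the adjusted p is under 0.05. Grin2b is filled throughout, between -2.46 and -0.71, while Grin3a is open in the 3 fits with the length trend removed.

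The noncoding Gm14329 inside Grin2b moved in the same way as its host. It was at 4.59, 2.76 and 0.962 CPM in OGD-miR-29, 13.1, 16.3 and 13.4 CPM in OGD-empty, 6.07, 9.22 and 4.11 CPM in sham-miR-29, and 3.98 and 4.05 CPM in sham-empty. The OGD-empty libraries were the highest 3, where 22% of all genes had OGD-empty above sham-empty without overlap. Gm14329 had a log2 fold change in OGD-miR-29 against OGD-empty of -2.12 ± 0.35 (adjusted p = 0.000571) and in OGD-empty against sham-empty of 1.80 ± 0.48 (adjusted p = 0.0358). Reads of Grin2b and of Gm14329 cannot be told apart if the counting ignored strand. Of the other neighbours, Kcnj14, a potassium channel gene beside Grin2d, was higher at 0.91 ± 0.24 (adjusted p = 0.00677) and Tmem259, which overlaps Grin3b, at 0.82 ± 0.22 (adjusted p = 0.00760) in OGD-miR-29 against OGD-empty. Kdelr1 over Grin2d (0.64 ± 0.36), Rnf20 beside Grin3a (-0.34 ± 0.27) and the neighbours of Grin1, at -0.16 ± 0.21 for E130003G02Rik, -0.05 ± 0.22 for Anapc2 and 0.14 ± 0.22 for both Tmem210 and Lrrc26, did not pass the test.

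The balance of GluN2A and GluN2B transcripts was read from the ratio of Grin2a to Grin2b counts within a library, which needs no scaling between libraries but is not corrected for the different gene lengths. It was 0.416, 0.417 and 0.378 in OGD-miR-29, 0.286, 0.625 and 0.350 in OGD-empty, 0.373, 0.323 and 0.369 in sham-miR-29, and 0.620 and 0.426 in sham-empty. The miR-29 libraries were close together, and the empty-virus libraries spread widely. OGD-miR-29 and OGD-empty had nearly the same mean log2 ratio, -1.31 ± 0.08 and -1.33 ± 0.59 (SD, n = 3 each), in a 2-sided exact permutation test with p = 1.0. The mean was -1.50 ± 0.12 in sham-miR-29 and -0.96 ± 0.38 in sham-empty, with an exact permutation p of 0.1. OGD-miR-29 against sham-miR-29 also had an exact permutation p of 0.1, and OGD-empty against sham-empty 0.5. With these group sizes 0.1 is the smallest p possible, and the 4 tests cannot pass 0.05. The sign of this near-equal comparison changed with the library left out.

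Across the 11 libraries Grin2a and Grin2b varied together (Pearson r of log2 CPM 0.94), and Grin3a followed both (0.70 with Grin2a and 0.75 with Grin2b). Grin1 did not, at -0.09 with Grin2a and 0.11 with Grin2b, and Grin2d ran opposite, at -0.51 with each and -0.66 with Grin3a. These values describe libraries that share group, length trend and dissection day. Of 7818 other genes with at least 20 counts on average, the 5 most like Grin2b were Nrcam (r = 0.992), Mmp16, Epha5, Kcnq1 and Exoc6b (0.983), spanning 266.3 to 451 kb. For Grin2a they were Il1rapl1 (0.990), Fgf12, Gpr158, Kcnh7 and Med13l (0.988), which span 204.8 to 1374.8 kb, so both lists hold long genes. For Grin3a the list was Vps4b (0.961), Atp2b1, Wnk3, Fzd3 and Trim2 (0.933). Grin1 was most like Slc6a7 (0.853), Clstn1, Scd2, Cdk16 and Pik3cd (0.802), all at 62.4 kb or less. Grin2d was most like Wdr62 (0.920), Pqlc1, Htra4, Smg5 and Prpf19, and Grin3b most like Padi6 (0.857), Eif4enif1, Nacad, Hars and Polr2c.

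The proteins that hold NMDA receptors at the synapse were read from a list of 24 scaffold and anchoring genes, 23 of them tested, with a median span of 67.8 kb. In OGD-miR-29 against OGD-empty 12 were lower and 3 higher, where 19.9% of all genes were lower and 17.2% higher, with a median log2 fold change of -0.68 against 0.02 over all genes. The lower ones included Neto1, an auxiliary protein of NMDA and kainate receptors (-1.92 ± 0.34, adjusted p = 0.00117), Shank2, a master scaffold (-1.49 ± 0.30, adjusted p = 0.00159), Dlg1, which encodes SAP97 (-1.53 ± 0.32), and Dlgap4 (-1.04 ± 0.24). The higher ones were Homer3 (0.98 ± 0.29), Lin7b (0.78 ± 0.28) and Kif17, the motor that carries GluN2B along dendrites (0.70 ± 0.25). With the length trend removed, 3 of the list were lower and 2 higher, where 22.9% of all genes were called in either direction, with a median of -0.22. The genes counted there need not be those named, since Homer3 (0.69, adjusted p = 0.0820) and Lin7b (0.33, adjusted p = 0.423) were not called. Over 10 fits by other methods, those with the length trend removed among them, Neto1 kept its call throughout. The calls of Shank2, Dlg1 and Dlgap4 ended in 3 each, with values as small as -0.12, -0.36 and -0.22. The Homer3 call ended in 2 of 14 fits that left out a library or replicate number, that of Lin7b in 5 and that of Kif17 in 6. The summed level of the list was 474 to 518 CPM in OGD-miR-29 and 780 to 1900 CPM in OGD-empty, against 562 to 809 CPM in sham-miR-29 and 562 to 621 CPM in sham-empty.

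In OGD-empty against sham-empty 1 scaffold gene was called, Shank2 (1.38 ± 0.39, adjusted p = 0.0464), where 5.09% of all genes were called, with a list median of 0.43 against 0.02 over all genes. This call ended in the fit of the compared groups alone (adjusted p = 0.114), in limma-voom (0.0587), with the length trend removed (0.43, adjusted p = 0.521) and in 9 of 14 fits that left out a library or replicate number, where it lay between 0.59 and 2.11. In the interaction Homer1 (-1.18 ± 0.30), Shank2 (-1.78 ± 0.50) and Neto1 (-1.81 ± 0.53) were called, all below 0 (adjusted p 0.0213, 0.0357 and 0.0477), where 8.38% of all genes were called. With the replicate block 7 of the list were called, all below 0, where 15.4% of all genes were called. With the length trend removed 1 was called, where 4.7% of all genes were. Without sham-empty replicate 1 and without replicate 2 the list had 0, where 0.527% and 0.766% of all genes were called. With the length trend removed Homer1 was at -0.56, Shank2 at -0.50 and Neto1 at -1.11, none of them called. The Homer1 call ended in 6 of 14 fits that left out a library or replicate number, and the Shank2 and Neto1 calls in 9 each. Homer1, which links the scaffold to metabotropic glutamate receptors, was also the list's gene with the smallest p in OGD-miR-29 against sham-miR-29 (-0.88 ± 0.19, adjusted p = 0.171), where none was called. In sham-miR-29 against sham-empty that gene was Homer2 (0.87 ± 0.36, adjusted p = 1), and none was called. The gene in OGD-miR-29 against sham-empty was again Homer1 (-0.54 ± 0.23, adjusted p = 0.709).

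Kinases, phosphatases and calcium effectors that act on or after the receptor had called genes in both directions. Of 28 tested from a list of 29, with a median span of 57.6 kb, 10 were lower and 3 higher in OGD-miR-29 against OGD-empty. Of all genes 37.1% were called there, 19.9% lower and 17.2% higher. The list median was -0.54. Lower were Ppp3ca, a catalytic subunit of calcineurin (-1.66 ± 0.32, adjusted p = 0.00203), Rasgrf2, a calcium-dependent Ras activator (-1.44 ± 0.28, adjusted p = 0.00110), Fyn, the kinase that phosphorylates GluN2B (-1.07 ± 0.24), and the protein kinase C gene Prkcb (-0.86 ± 0.20). Higher were the calmodulin genes Calm3 (1.19 ± 0.22, adjusted p = 0.000749) and Calm2 (1.06 ± 0.22) and the kinase Cdk5 (0.87 ± 0.25), which span 5.3 to 13.5 kb, while the 4 lower genes span 196.5 to 345.7 kb. With the length trend removed, 1 of the list was lower and 3 higher, where 22.9% of all genes were called in either direction, with a median of -0.05. The genes counted there need not be those named. Over 10 fits by other methods, those with the length trend removed among them, Calm3 and Calm2 kept their calls throughout. The calls of Ppp3ca, Rasgrf2 and Cdk5 ended in 3 each, with values as small as -0.27, -0.37 and 0.40. Fyn and Prkcb kept sign and call in 7 each, and reached 0.05 and 0.38.

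After OGD under the empty virus, Fyn was higher (1.10 ± 0.30, adjusted p = 0.0379) and Calm2 (-1.25 ± 0.24, adjusted p = 0.00686) and Cdk5 (-1.10 ± 0.30, adjusted p = 0.0404) were lower than in sham-empty. In this contrast 5.09% of all genes were called, 1.48% higher and 3.61% lower. With the replicate block 4 of the list were higher and 2 lower, where 11.3% of all genes were called. Without the length trend 0 were higher and 1 lower, where 2.59% of all genes were called. Fyn was then at 0.34 (adjusted p = 0.465) and Cdk5 at -0.78 (0.145). The Fyn and Cdk5 calls also ended in the fit of the compared groups alone (adjusted p 0.149 and 0.0726), in limma-voom (0.0797 and 0.0512) and each in 9 of 14 fits that left out a library or replicate number, and the Calm2 call ended in 3. The interaction was called for Calm2 (1.38 ± 0.33), Cdk5 (1.38 ± 0.39) and Ppp3ca (-1.71 ± 0.50), where 8.38% of all genes were called. These calls ended in 4, 8 and 10 of the 14 fits, and with the length trend removed Calm2 was called (1.11) while Cdk5 (0.95) and Ppp3ca (-0.52) were not. Where none of the list was called, the gene with the smallest p was Prkca in OGD-miR-29 against sham-miR-29 (-0.89 ± 0.37, adjusted p = 0.520), Src in sham-miR-29 against sham-empty (0.71 ± 0.35, adjusted p = 1) and Camk2d in OGD-miR-29 against sham-empty (-0.97 ± 0.38, adjusted p = 0.709).

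Genes that make or carry the co-agonists glycine and D-serine formed the third list. Of 12 tested from a list of 13, with a median span of 22.8 kb, 2 were higher and 1 lower in OGD-miR-29 against OGD-empty. Of all genes 37.1% were called there, 17.2% higher and 19.9% lower. The list median was -0.08. The glycine transporter gene Slc6a9 (0.79 ± 0.20, adjusted p = 0.00502) and Psph, the last enzyme of serine synthesis (0.87 ± 0.28, adjusted p = 0.0217), were higher, and the amino acid transporter gene Slc38a1 was lower (-0.59 ± 0.19, adjusted p = 0.0213). With the length trend removed, 3 of the list were higher and 1 lower, where 22.9% of all genes were called, with a median of -0.11. Over 10 fits by other methods, those with the length trend removed among them, the Slc38a1 call ended in 4, with values as small as -0.19. The Psph call ended in 1 of them and the Slc6a9 call in 0. None was called in the other contrasts, where the smallest p belonged to Slc38a1 in OGD-empty against sham-empty (0.57 ± 0.23, adjusted p = 0.136), Psph in the interaction (1.08 ± 0.45, adjusted p = 0.122), Slc38a2 in OGD-miR-29 against sham-miR-29 (-0.48 ± 0.26), Phgdh in sham-miR-29 against sham-empty (-0.75 ± 0.47) and Slc6a9 in OGD-miR-29 against sham-empty (0.51 ± 0.24).

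Markers of cell types were read in the same libraries. The summed level of the 10 pan-neuronal markers was 915 to 1060 CPM in OGD-miR-29 and 1170 to 1430 CPM in OGD-empty, against 984 to 1140 CPM in sham-miR-29 and 1030 to 1040 CPM in sham-empty. In OGD-miR-29 against OGD-empty 37.1% of all genes were called, 17.2% higher and 19.9% lower. Of these 10 markers 4 were higher and 4 lower. Among them were the neurofilament gene Nefl, which spans 5.2 kb (1.09 ± 0.22), and the synaptic vesicle gene Syt1, which spans 513.3 kb (-1.82 ± 0.33). Excitatory markers summed to 28 to 35.1 CPM in OGD-miR-29 and 42.9 to 46.1 CPM in OGD-empty, with Tbr1 at -0.73 ± 0.41. Inhibitory markers summed to 143 to 239 CPM and 224 to 292 CPM in these groups, with Gad2 lower (-0.77 ± 0.24) and Dlx1 higher (0.70 ± 0.23). Astrocyte markers summed to 64.4 to 79.9 CPM and 101 to 116 CPM, with 1 of 7 lower, the glutamate transporter gene Slc1a2 (-1.18 ± 0.23), and Fgfr3 at -0.73 ± 0.33. Of the 3 microglial markers Aif1 was higher (1.54 ± 0.38) and Cx3cr1 was at 0.05 ± 0.22, and of the 3 oligodendrocyte markers Sox10 was higher (1.14 ± 0.38) and Mbp at -0.34 ± 0.39. Neither of the 2 fibroblast markers, Col3a1 (0.50 ± 0.26) and Dcn (0.39 ± 0.43), passed the test. Over 10 fits by other methods, those with the length trend removed among them, Nefl and Aif1 kept their calls throughout. The calls of Syt1 and Slc1a2 ended in 2 each, those of Gad2 and Dlx1 in 4 each, and that of Sox10 in 4 of 9. Cx3cr1 was called higher in 3, reaching 0.86, Fgfr3 lower in 2 and Tbr1 lower in 1 of 9. The part of the marker levels in the subunit gene differences was not tested.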

How the data were processed

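The authors deposited read counts per gene symbol for 12 columns, and per the submitters' processing notes STAR 2.5.0a, featureCounts 1.4.3-p1, edgeR and build mm10 were used, with no role or order given. Per the labels' protocols the RNA was depleted of ribosomal RNA. The authors' deposited comparison tables hold log2 fold changes, a likelihood ratio score and p-values per the file headers. The columns left unmapped numbered 0. One column labelled sham-empty was known beforehand not to hold read counts, and was to stay out if its values bore this out. They did, so 11 libraries were used from the 12 columns.

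Counts were tested with edgeR 4.0.16 in R 4.3.3 (quasi-likelihood F test, robust, TMM, filterByExpr, 4 group means, no block), which kept 12119 of 12145 genes. The SE was taken as log2 fold change over the root of the F statistic. CPM in correlations and length trends used a prior count of 2, and the length trend was a loess of span 0.5 on log10 gene span, for each library. Replicate numbers mark dissection days, per the design text, and so pair the libraries. Deviations of same-numbered libraries from their group means correlated at -0.09 to 0.23 (median 0.01, 15 pairs), and those of other pairs at -0.24 to 0.20 (median 0, 30 pairs). GENCODE M21 gave spans for 11948 genes, 592 of them through an older symbol. The tests were tried on simulated data. Alternatives were other scalings, no filter, DESeq2 1.42.0, limma-voom 3.58.1, a replicate block, removal of the length trend, mitochondrial rows left out, the compared groups alone, and each library or replicate number left out.

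The members and gene lists were chosen with earlier results of these data known. Every subunit gene was named in every contrast. From a list, up to 4 called genes with the smallest p in each direction were named, or the 1 with the smallest p, and from a marker list the 2 with the smallest p. A marker gene that this rule names is not reported here.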

Additional observations from a re-analysis of the deposited data

Results flagged for a closer look

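Several genes responded to OGD differently under the viruses by the interaction test itself, where 8.38% of all genes were called. The interaction is (OGD-miR-29 minus sham-miR-29) minus (OGD-empty minus sham-empty) on the log2 scale. Among the subunit genes the called gene was Grin2b, at -2.20. Among the scaffold genes Homer1 was at -1.18, Shank2 at -1.78 and Neto1 at -1.81. Among the kinases, phosphatases and calcium effectors Calm2 was at 1.38, Cdk5 at 1.38 and Ppp3ca at -1.71. The genes below 0 span 105.5 to 460.28 kb, and those above 0 span 5.3 and 13.5 kb. With the trend with gene span removed, Calm2 was still called, at 1.11 (adjusted p = 0.0264), where 4.7% of all genes were called. In that fit Grin2b (-0.74), Homer1 (-0.56), Shank2 (-0.50), Neto1 (-1.11), Cdk5 (0.95) and Ppp3ca (-0.52) were no longer called, with adjusted p-values of 0.130, 0.242, 0.510, 0.0689, 0.120 and 0.316. Without sham-empty replicate 1 and without replicate 2, 0.527% and 0.766% of all genes were called in the interaction. The subunit, scaffold and kinase lists had 0 called genes in both of these fits. Groups of 2 or 3 libraries are too small to test for a single library that stands apart.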

How the results depend on the processing

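Grin2b in OGD-miR-29 against OGD-empty kept its direction and its call in every alternative tried. The replicate block changed no call of a subunit gene. With it Grin3b in sham-miR-29 against sham-empty turned to -0.24, and it was at -0.21 with the length trend also removed, -0.08 in limma-voom and -0.02 in DESeq2. Grin2b in that contrast was at -0.06 in limma-voom. The cause was not tested for any change given here.

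With the length trend removed, Grin2b in OGD-empty against sham-empty was at 0.44 (0.46 with the block, and 0.58 with the block and without OGD-empty replicate 2, the fit added after seeing the data), and in a fit of these groups alone at 1.43, none of them called. In the same 3 fits without the length trend Grin3b was at 0.23, 0.13 and 0.13, and in the added fit Grin2a was at -0.21 and Grin3a at -0.01. In OGD-miR-29 against OGD-empty Grin3a lost its call at -0.13, -0.18 and -0.09, Grin3b turned to -0.02, -0.03 and -0.02, and Grin2a was not called in the added fit (-0.39). In the interaction Grin2b was at -0.74, and -0.77 with the block, both not called (-0.88, called, in the added fit), Grin3b at -0.03 without the length trend, and Grin2a at 0.09 in the added fit. DESeq2 called Grin2a in the interaction (-1.90, adjusted p = 0.0474). Grin3a in OGD-miR-29 against sham-empty was at 0.10 without the length trend. Among other genes in OGD-miR-29 against OGD-empty, Prkcb turned to 0.37, 0.38 and 0.19 in the 3 fits and Mbp to 0.23 and 0.22 in the first 2, and Fyn to 0.05 in the added fit.

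Leaving out each library or replicate number changed the call or sign of a subunit gene, or the sign of another named gene, as follows. Without a change of sign, calls in OGD-miR-29 against OGD-empty ended for Dlx1 in 6 of 14 fits, Sox10, Psph and Slc38a1 in 5, Gad2 in 4, and Cdk5, Slc6a9 and Aif1 in 1. In OGD-empty against sham-empty Grin2b ranged over 1.10 to 1.73, Grin2d over -0.80 to 0.14 and Grin3b over -0.31 to 0.42. In OGD-miR-29 against OGD-empty Grin2a ranged over -2.92 to -1.24, Grin3a over -1.42 to -0.64, Cx3cr1 over -0.06 to 0.20 and the log2 ratio of Grin2a to Grin2b over -0.21 to 0.35. In the interaction the ranges were -2.62 to -1.35 for Grin2b, -2.20 to -0.61 for Grin3a, -0.02 to 1.13 for Grin3b and -0.11 to 1.80 for Psph. In OGD-miR-29 against sham-miR-29 they were -0.17 to 0.07 for Grin1 and -0.11 to 0.82 for Grin3b. In sham-miR-29 against sham-empty they were -0.31 to 0.19 for Grin2b, -0.47 to 0.34 for Grin2d, -0.07 to 0.82 for Grin3a, -0.48 to 0.34 for Grin3b and -1.06 to 0.03 for Phgdh. In OGD-miR-29 against sham-empty they were -0.05 to 0.15 for Grin1, -0.02 to 0.78 for Grin2d, -0.60 to 0.29 for Grin3a and -0.10 to 0.74 for Grin3b.

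The count of all genes called depended on the fit. In OGD-empty against sham-empty it was 617, with 309 without the length trend, 388 in limma-voom, 201 for the compared groups alone, 12 and 76 without sham-empty replicates 1 and 2, 402 without sham-miR-29 replicate 1, 984 and 367 without OGD-empty replicates 1 and 3, and 0, 217 and 173 without replicates 1, 2 and 3. In OGD-miR-29 against OGD-empty it was 4501, with 2732 without the length trend, 2946 with the block added, 2867 in the added fit and 2664 and 2582 without replicates 1 and 3. In the interaction it was 1015, with 561 without the length trend, 64 and 93 without the sham-empty replicates, 647 and 308 without sham-miR-29 replicates 1 and 2, 634 and 439 without OGD-miR-29 replicates 2 and 3, and 0, 237 and 3 without replicates 1, 2 and 3. In OGD-miR-29 against sham-miR-29 it was 2, with 0 to 25 elsewhere, and in OGD-miR-29 against sham-empty 0, with up to 16. Grin2d, Grin3a and Grin3b rested on the fewest reads, with libraries down to 3, 10 and 8 counts.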
